A study of Mus musculus with 3 samples.

Results

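The cells described here were 771 of 47453 kept splenocytes that met a rule for classical Ly6c2 monocytes, and they were chosen by their own measured RNA counts. A kept cell was a barcode with more than 200 and fewer than 3500 detected genes, under 15% mitochondrial unique molecular identifiers (UMIs, counts of distinct captured RNA molecules) and a top hashtag count at least 3 times the second. Members carried at least 5 UMIs summed over Ly6c2, Ccr2, Fn1, F13a1 and Vcan, at least 1 UMI of Cst3, and none of Cd79a, Cd3e, Ncr1 or Siglech. They also held fewer than 5 UMIs summed over Mpo, Elane, Prtn3 and Ctsg, which mark granulocyte and monocyte progenitors, and fewer than 3 summed over Ace, Ear2 and Treml4, which mark nonclassical monocytes. The rule selected 237 of 15957 kept control cells, 233 of 13982 kept Ang II cells and 301 of 17514 kept B6.SLE123 cells.

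Classical monocytes are bone marrow-derived phagocytes that carry the surface protein Ly6C and leave the marrow through the chemokine receptor CCR2. The spleen holds a reservoir of them, from which they can be released to inflamed tissue and can become macrophages or antigen-presenting cells. They carry the growth factor receptor Csf1r and depend on the transcription factors Spi1 and Klf4, and they can mature into nonclassical patrolling monocytes.

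Single-cell RNA was measured from spleens depleted of T cells with CD3 microbeads, in mice 12 to 14 weeks old, with a 5′ chemistry and antibody hashtags. Each of the 3 libraries pooled 2 conditions of 3 mice each, and was the only library of its kind. The control library held male sham-operated C57Bl/6 mice, which carried a minipump for 2 weeks from 10 weeks of age, together with female C57Bl/6 mice. The Ang II library held male C57Bl/6 mice given angiotensin II, a hormone that raises blood pressure, for 2 weeks from 10 weeks of age, with either placebo or 2HOBA. The agent 2HOBA (2-hydroxybenzylamine) scavenges isolevuglandins, which are reactive products of lipid oxidation. The B6.SLE123 library held mice of that lupus-prone strain, given placebo or 2HOBA for 6 weeks from 7 weeks of age. The strain carries lupus susceptibility intervals on a C57Bl/6 background. The paper that reported these data describes its B6.SLE123 mice as female, while the control library was partly male. The 6 hashtags of each library, C0301 to C0306, are not tied to a condition in the labels, so sham cannot be told apart from female control, or placebo from 2HOBA. Library, treatment, strain, sex and depth cannot be told apart between libraries either, no test between libraries was possible, and every interval below is a 95% interval for counting error only.

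The libraries held 18218, 16062 and 20691 barcodes and 44146350, 59043555 and 63516694 gene UMIs in the order control, Ang II, B6.SLE123. Kept cells had a median of 1792, 2771 and 1956 UMIs. Between 872 and 953 barcodes of a library were also present in another, and 10 to 16 members per library were among them. Members had median depths of 4835, 7985 and 4851 UMIs, so the Ang II members were sampled most deeply. Cells that shared a hashtag are not replicates of a condition here and are given as ranges.

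The marker check went against the label for a large part of the members. Of the 5 rule markers, Ly6c2 alone carried 366 members past the limit, with 0 UMIs of Ccr2, Fn1, F13a1 and Vcan. These Ly6c2-only cells numbered 62, 152 and 152, again in the order control, Ang II, B6.SLE123, which is kept below for values given library by library. A further 346 members held at least 5 UMIs over Ccr2, the chemokine receptor for marrow exit, Fn1 (fibronectin), F13a1 (the A subunit of coagulation factor XIII) and Vcan (the matrix proteoglycan versican). These 4-marker cells numbered 156, 77 and 113. The remaining 59 members lay between, 19, 4 and 36 per library. This division was made after the values were seen, and the markers that made it are a description.

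The 4-marker cells and the Ly6c2-only cells differed in genes that the rule did not use. Csf1r, a growth factor receptor of the monocyte lineage, had a UMI in 132 of 156, 72 of 77 and 90 of 113 4-marker cells, and in 1 of 62, 2 of 152 and 6 of 152 Ly6c2-only cells. Its level was 498, 569 and 520 CPM (the usual depth-scaled unit, a gene's UMIs relative to all gene UMIs of the summed cells) in the 4-marker cells and 7.79, 1.33 and 10.6 CPM in the Ly6c2-only cells. B cells, which should lack Csf1r, had a UMI of it in 0.0917%, 0.169% and 0.221% of cells at median depths of 1706, 2628.5 and 1830.5 UMIs, all far under the 4-marker cells. After thinning to 1500 UMIs, 48.0%, 63.6% and 47.2% of 4-marker cells and 1, 0 and 1 of the Ly6c2-only cells had a UMI, with 4, 0 and 5 shallower cells left out of the first set and 4, 0 and 4 out of the second. Klf4, a transcription factor of monocyte development, was at 80.3, 116 and 108 CPM in the 4-marker cells, and at 0, 0 and 2.88 CPM in the Ly6c2-only cells.

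The Ly6c2-only cells instead carried the secondary-granule genes of the neutrophil lineage. Summed UMIs of Camp (cathelicidin), Ngp (neutrophilic granule protein), Ltf (lactoferrin) and Lcn2 (lipocalin-2) had medians of 745, 1275.5 and 896.5 per cell. The median was 0 in the 4-marker cells of all 3 libraries. At least 5 such UMIs were present in 55 of 62, 148 of 152 and 142 of 152 Ly6c2-only cells, and in 0, 0 and 2 of the 4-marker cells. Ly6g, a surface marker of mouse neutrophils, had a UMI in 51, 144 and 130 Ly6c2-only cells, and in 0, 0 and 2 of the 4-marker cells. The 11 neutrophil genes listed for checking summed to 510720, 488410 and 453700 CPM in the Ly6c2-only cells. They summed to 139, 224 and 9841 CPM in the 4-marker cells, with 7, 3 and 1 of the genes at 0. Ly6c2, which the Ly6c2-only cells held at 5 UMIs or more by construction, had a median of 7, 6 and 10 UMIs in 4-marker cells and 9.5, 11.5 and 10 UMIs in Ly6c2-only cells. Ly6c2 has a close paralog, Ly6c1, and UMIs may be split between them.

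**Figure D1:**
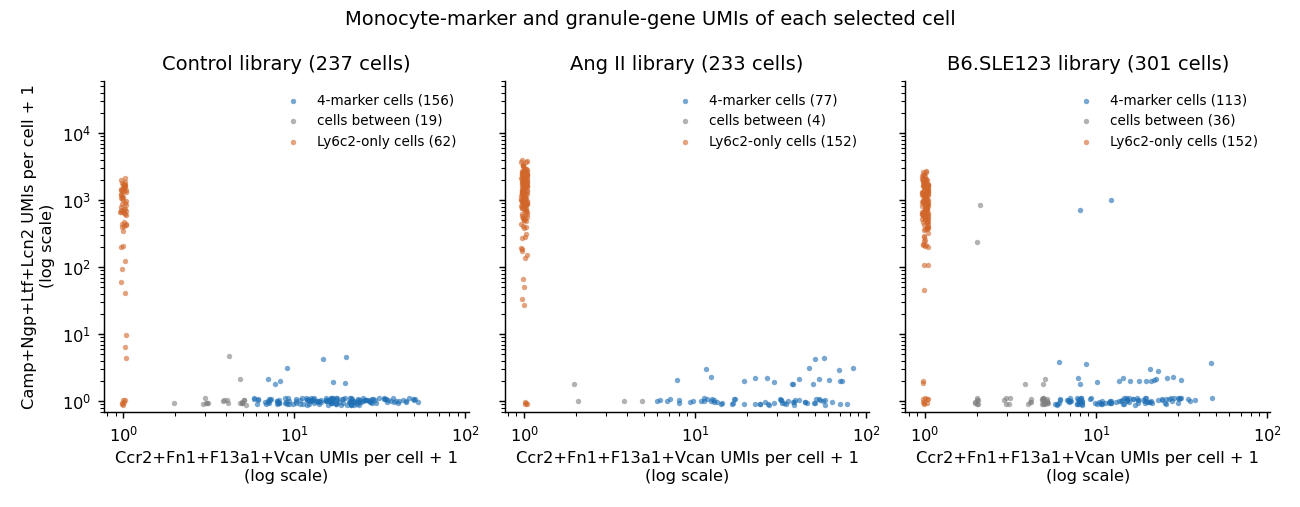
Each point is 1 selected cell, with the summed UMIs of Ccr2, Fn1, F13a1 and Vcan on the x axis and those of Camp, Ngp, Ltf and Lcn2 on the y axis, both plus 1 on log scales, with a small random shift so that points do not cover each other. The 4-marker cells (156, 77 and 113) lie mostly along the bottom, except 2 B6.SLE123 cells with at least 5 granule UMIs. The Ly6c2-only cells (62, 152 and 152) rise along the left edge, where 55, 148 and 142 have at least 5 granule UMIs, and 19, 4 and 36 cells lie between.

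Promoters of 4 genes are shown as examples from both sides of this division. Some other genes of each side differed from them, as given below. The 4 are Ly6c2, which both sets of cells carried, F13a1 of the 4-marker cells, and Ngp and Ltf of the Ly6c2-only cells. Each run holds 250 bases before and 50 after the start of transcription in RefSeq (GRCm38.p6), read 5′ to 3′ on the gene's strand. Capitals mark GAGGAA, the core bound by PU.1 (the product of Spi1), and TTNNGCAA, a core bound by C/EBP factors, searched on both strands, so that a core on the other strand appears as its reverse complement.
Ly6c2, chr15:75111922-75112221, minus strand: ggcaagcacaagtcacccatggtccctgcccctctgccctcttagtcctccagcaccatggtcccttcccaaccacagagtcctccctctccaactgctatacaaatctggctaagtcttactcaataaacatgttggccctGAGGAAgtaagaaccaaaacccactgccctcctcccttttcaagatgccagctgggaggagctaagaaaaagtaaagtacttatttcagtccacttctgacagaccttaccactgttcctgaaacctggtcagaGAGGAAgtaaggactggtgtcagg
F13a1, chr13:37050195-37050494, minus strand: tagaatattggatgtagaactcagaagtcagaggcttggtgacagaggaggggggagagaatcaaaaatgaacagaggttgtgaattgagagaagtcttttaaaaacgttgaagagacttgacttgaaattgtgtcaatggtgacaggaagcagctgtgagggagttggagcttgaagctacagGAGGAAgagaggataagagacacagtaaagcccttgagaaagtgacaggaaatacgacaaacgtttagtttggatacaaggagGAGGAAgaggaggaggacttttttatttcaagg
Ngp, chr9:110419558-110419857, plus strand: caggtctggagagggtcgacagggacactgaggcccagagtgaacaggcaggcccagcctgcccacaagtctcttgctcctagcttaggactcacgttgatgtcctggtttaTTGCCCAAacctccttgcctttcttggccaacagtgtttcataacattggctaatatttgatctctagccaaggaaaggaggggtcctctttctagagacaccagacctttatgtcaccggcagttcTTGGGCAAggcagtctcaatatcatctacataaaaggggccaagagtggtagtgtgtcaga
Ltf, chr9:111019042-111019341, plus strand: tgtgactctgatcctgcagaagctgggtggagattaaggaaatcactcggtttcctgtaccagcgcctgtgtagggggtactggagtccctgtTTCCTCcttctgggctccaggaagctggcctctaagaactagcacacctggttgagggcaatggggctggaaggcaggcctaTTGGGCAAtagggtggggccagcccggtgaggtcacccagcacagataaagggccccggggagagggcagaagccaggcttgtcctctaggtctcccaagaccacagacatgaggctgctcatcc
The Ly6c2 and F13a1 windows each held 2 GAGGAA matches and 0 of TTNNGCAA, Ngp held 2 of TTNNGCAA and 0 of GAGGAA, and Ltf held 1 of each, with no overlap between the cores. A second F13a1 start window (chr13:37049164-37049463) held 1 GAGGAA match, a second Ly6c2 window (chr15:75111888-75112187) that overlaps the one shown held 2, and neither held TTNNGCAA. Of the other windows searched, Lcn2 (chr2:32387690-32387989) held 1 of each, S100a8 2 of GAGGAA and S100a9 1 of TTNNGCAA. Ccr2, Vcan and Camp held neither core, and no window is given for Fn1 or Csf1r. Among 32851 windows of 300 bases, 28.3% held GAGGAA and 10.8% held TTNNGCAA, so single matches are common. A match is only a run of letters.

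Members made up 1.49% of kept control cells (interval 1.30 to 1.69). The share was 1.67% with Ang II (1.46 to 1.89) and 1.72% in the lupus-prone strain (1.53 to 1.92). The intervals overlapped, and the log2 ratio to control was 0.17 for Ang II (-0.10 to 0.43) and 0.21 for B6.SLE123 (-0.04 to 0.46). The 4-marker cells were 0.978%, 0.551% and 0.645% of kept cells, with log2 ratios of -0.83 (-1.24 to -0.43) and -0.60 (-0.96 to -0.24). The Ly6c2-only cells were 0.389%, 1.09% and 0.868%, with log2 ratios of 1.48 (1.05 to 1.93) and 1.16 (0.72 to 1.61). With every kept cell thinned to 1000 UMIs, which left out 1388, 898 and 2180 shallower cells, at least 3 UMIs of the other 4 markers were held by 0.844%, 0.390% and 0.548% of cells. That order of the libraries was the one seen without thinning.

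Thinning did move the other shares. At a sum of 3 over all 5 markers the thinned log2 ratio to control was -1.19 for Ang II (-1.61 to -0.80) and 0.05 for B6.SLE123 (-0.25 to 0.34), and at a sum of 5 it was -1.46 and -0.23. Thinned cells with at least 3 UMIs of Ly6c2 and 0 of the other 4 markers numbered 24, 12 and 49, log2 ratios of -0.84 for Ang II (-1.98 to 0.21) and 0.96 for B6.SLE123 (0.22 to 1.73). With the Cst3 term read before thinning they numbered 40, 44 and 89, log2 ratios of 0.29 (-0.36 to 0.95) and 1.08 (0.53 to 1.66). At equal depth the intervals for Ang II, whose cells were deepest, thus included 0 in both counts, and those for B6.SLE123 lay above 0.

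The hashtag populations of a library differed more than the libraries did. Members were 0.789% to 3.02% of the kept cells of a control hashtag, with a median of 1.05%, 0.695% to 4.0% of an Ang II hashtag (median 1.34%) and 0.542% to 3.75% of a B6.SLE123 hashtag (median 1.5%). All 3 ranges overlapped. The 4-marker cells ranged from 0.473% to 2.01% in the control library, where C0305 alone held 60 of the 156. Their ranges were 0.210% to 0.794% over Ang II hashtags and 0.281% to 1.06% over B6.SLE123 hashtags. Without control C0305 the log2 ratio of 4-marker shares was -0.43 for Ang II and -0.20 for B6.SLE123. The Ly6c2-only cells ranged from 0.0425% to 0.771% of a control hashtag, from 0.220% to 3.52% of an Ang II hashtag and from 0.0701% to 2.51% of a B6.SLE123 hashtag. Ang II C0302 held 66 of that library's 152, and without it the log2 ratio was 0.87. B6.SLE123 C0303 held 83 of 152, and without it the ratio was 0.32.

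**Figure D2:**
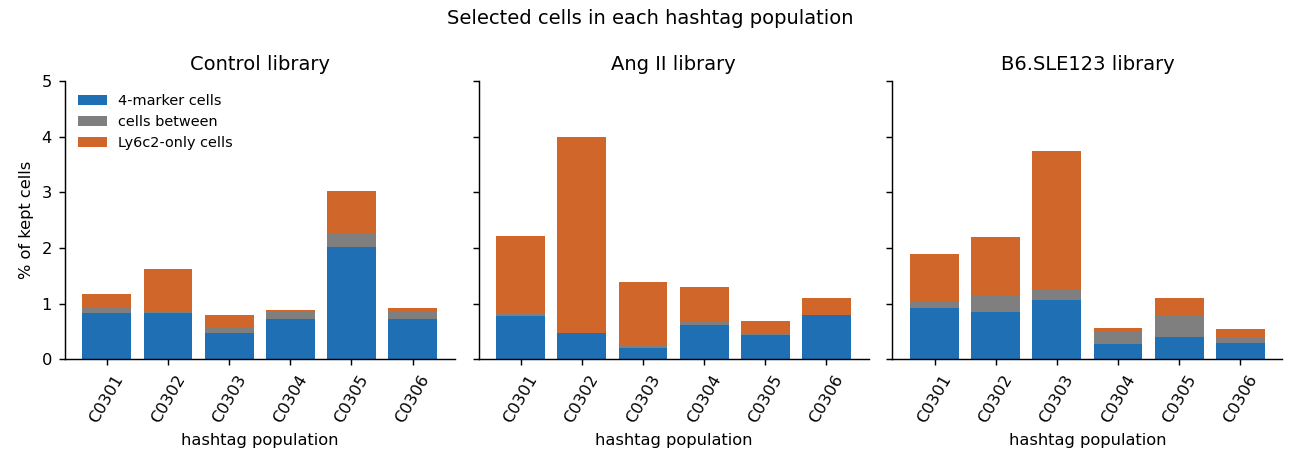
Stacked bars give the percent of kept cells that were 4-marker, between and Ly6c2-only members in each of the 6 hashtag populations of each library. Control C0305 reached 3.02%, Ang II C0302 4.0% and B6.SLE123 C0303 3.75%, the first mostly 4-marker cells and the other two mostly Ly6c2-only cells.

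At the limits of the rule, 13, 12 and 26 members had a marker sum of exactly 5, and 15, 10 and 22 cells that met all other terms had a sum of 4. Of the cells at 5, 8, 9 and 14 held granule UMIs, against 8, 7 and 10 of those at 4. The progenitor limit alone kept out 6, 7 and 45 cells, and 37 of the B6.SLE123 cells among them carried hashtag C0303. The nonclassical limit alone kept out 37, 42 and 40. The marker sum was met by 520, 568 and 741 kept cells. Most of those not selected failed the Cst3 term, the terms that required 0 UMIs, or several terms. The part of depth in this was not tested. The separate nonclassical gate on Ace, Ear2 and Treml4 held 167, 83 and 262 cells, or 1.05%, 0.594% and 1.5% of kept cells. Its log2 ratio to control was -0.82 for Ang II (-1.22 to -0.43) and 0.52 for B6.SLE123 (0.23 to 0.80), so that share was lower in the Ang II library, as for 4-marker cells, and higher in the B6.SLE123 library.

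Genes of all members were compared as summed CPM, calling a gene at 2-fold or more among genes with at least 50 UMIs over both libraries. A gene could reach that minimum through 1 library alone, so counts over the measured genes of a list are descriptions. In the Ang II library 206 of 5442 genes (3.79%) were higher and 677 (12.4%) lower than in control. In the B6.SLE123 library 229 of 5282 (4.34%) were higher and 297 (5.62%) lower. The median log2 ratio over all genes was -0.34 and -0.19, and with TMM scaling in place of totals the counts were 443 higher and 203 lower for Ang II and 318 higher and 141 lower for B6.SLE123. The share of Ly6c2-only cells among members also differed, at 26.2%, 65.2% and 50.5%, and its part in these member-wide values was not tested. In the 4-marker cells alone the all-gene medians were 0.00 and 0.01. There 28 of 3566 genes (0.785%) were higher and 12 (0.337%) lower for Ang II, and 70 of 3447 (2.03%) were higher and 47 (1.36%) lower for B6.SLE123.

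For Ang II, gene lists showed the same contrast between all members and 4-marker cells. The MHC class II presentation list had 8 of 8 genes called lower in Ang II members, with a median log2 ratio of -1.33, and 0 of 8 called in Ang II 4-marker cells, with a median of -0.01. The interferon response list had 14 of 19 genes called lower in Ang II members (median -1.23) and 1 of 18 in 4-marker cells (median -0.37). The neutrophil-like monocyte list, made of granule and inflammatory genes, summed over its 12 genes to 353580 CPM in Ang II and 165580 CPM in control members, and to 493 and 325 CPM in 4-marker cells. For B6.SLE123 the lists did not all show this contrast. The MHC class II presentation median was -0.84 in members and -0.64 in 4-marker cells, and the interferon response median -0.42 and -0.01. The neutrophil-like median was 0.94 and 6.46, the latter decided by few cells, as given further below. Among the genes with the lowest ratios in Ang II members, Ifi213, an interferon-inducible DNA sensor family member, was at -2.57 in all members and -1.16 in 4-marker cells. Phf11b was at -2.22 and -0.86, Cbfa2t3 (a transcriptional corepressor) at -2.12 and -0.85, and Apoc2 (an apolipoprotein that activates lipoprotein lipase) at -2.15 and -0.91. Of the 10 highest in Ang II members, Hist1h2ap, a replication-dependent histone, was at 2.06 in all members and 0.78 in 4-marker cells. Entpd5, Hist1h2ak, Olr1 and Pde4d had 1 to 3 UMIs in the 4-marker cells of either library. The rest of this account therefore gives the 4-marker and Ly6c2-only cells apart.

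The 4-marker cells shared a monocyte program across the libraries. Lyz2, the lysozyme of phagocytes, was at 27397, 23431 and 24855 CPM, against 628, 556 and 606 CPM in all other kept cells. Among genes outside the rule, Stxbp6 had the highest ratio to other kept cells, at least 76.8-fold in every library, followed by Mcub (45.4), a subunit of the mitochondrial calcium uniporter, and Fcgr1 (43.1), the high-affinity IgG receptor. The chemokine Ccl9 (37.6), Cebpa (35.3), a transcription factor of myeloid commitment, and the calcium-binding protein S100a4 (23.6) were also among the first 20. The interferon-inducible genes Ifi204 (31.6), Ifi211 (31.0) and Ifi207 (21.2) were there too. These ratios come from the cells that the rule chose and are a description.

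Of 24 other classical monocyte genes measured in the 4-marker cells, 0 were called in either library, with medians of -0.11 and 0.03. Of 16 monocyte transcription factors, 0 were called, with medians of 0.19 and 0.18. Over all genes 1.12% were called for Ang II and 3.39% for B6.SLE123. Few calls can thus be awaited in short lists, here and below. Spi1, the gene of PU.1, was at 570, 527 and 654 CPM. The rule markers, given only as a description, were at 2716, 1214 and 3062 CPM for Ly6c2, 806, 897 and 868 for Ccr2, 2052, 1966 and 1382 for Fn1, 927, 1217 and 1003 for F13a1 and 69.4, 254 and 53.9 for Vcan. Vcan had a UMI in 41 of 77 Ang II cells, 31 of 156 control cells and 18 of 113 B6.SLE123 cells, and after thinning to 1500 UMIs in 26.0%, 7.24% and 4.63%.

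In B6.SLE123 4-marker cells the largest deficit was in Hpgd (chr8:56294585-56321043, plus strand, GRCm38), which encodes the enzyme that inactivates prostaglandins by oxidation. It had 165 UMIs in 56 of 156 control cells, 136 UMIs in 36 of 77 Ang II cells and 0 UMIs in 113 B6.SLE123 cells. Its level was 225 CPM in control cells (interval 192 to 262) and 242 CPM in Ang II cells (203 to 286). It was 0 in B6.SLE123 cells. With a floor of 3 counts in place of the 0 UMIs, Hpgd was 38.9-fold lower than in control. By hashtag it was at 386, 217, 228, 119, 206 and 144 CPM in control C0301 to C0306. The Ang II hashtags stood at 135, 372, 0, 393, 219 and 263 CPM, and all 6 B6.SLE123 hashtags at 0. No B6.SLE123 hashtag overlapped a control hashtag, while the Ang II hashtag at 0 held 5 cells. Hpgd, and Apoe and Cyp4f18 below, were named for low ratios in these same cells, so a lack of overlap is a description. The share of all genes without overlap is not given. After thinning to 1500 UMIs, 27.6%, 28.6% and 0% of cells had a UMI, the last allowing up to 3.36%. B cells had a UMI in 0.0917%, 0.0847% and 0.0859%.

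The difference in Hpgd was not particular to the 4-marker cells. Nonclassical monocytes held 582, 579 and 12.2 CPM, and all other kept cells 17.0, 9.88 and 1.61 CPM, a log2 ratio of B6.SLE123 to control of -3.40 (-3.77 to -3.05). The Ly6c2-only cells were low in every library, at 20.8, 1.99 and 0 CPM. Of the 4 eicosanoid and prostaglandin genes measured in 4-marker cells, Hpgd was the 1 called for B6.SLE123, and 0 of 4 were called for Ang II.

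Apoe (chr7:19696109-19699188, minus strand), the apolipoprotein of lipid transport in macrophages, was lower as well. It was at 1003, 1194 and 150 CPM, with UMIs in 100 of 156, 58 of 77 and 20 of 113 cells. The log2 ratio of B6.SLE123 to control was -2.74 (-3.10 to -2.40), and leaving out 1 hashtag at a time it lay between -3.13 and -2.29. By hashtag it ranged from 694 to 1677 CPM over control hashtags (median 1128), from 624 to 1816 over Ang II hashtags (median 1137) and from 0 to 589 over B6.SLE123 hashtags (median 176), with no overlap between the B6.SLE123 and the other hashtags. In all other kept cells the log2 ratio was -1.02 (-1.08 to -0.96). B cells had an Apoe UMI in 14.0%, 13.6% and 5.52% of cells, and the part of free RNA in the Apoe values was not tested.

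Cyp4f18 (chr8:71988482-72009626, minus strand), which hydroxylates leukotriene B4 and other fatty acids, was at 184 CPM in control and 28.9 CPM in B6.SLE123, a log2 ratio of -2.67 (-3.55 to -1.90). Its control hashtags lay between 139 and 305 CPM and its B6.SLE123 hashtags between 0 and 69.5 CPM, with no overlap. Slamf7 (chr1:171632403-171653035, minus strand), a self-ligand receptor of leukocytes, was at 87.1 and 7.70 CPM, with 64 UMIs in 28 control cells and 4 UMIs in 3 B6.SLE123 cells, a log2 ratio of -3.50 (-5.42 to -2.07). Its hashtags overlapped, since control C0302 was at 0. In all other kept cells Slamf7 differed far less, at -0.20 (-0.29 to -0.11), and Cyp4f18 was at -1.32 (-1.40 to -1.25). Gm36161 (chr13:120010390-120018931, plus strand), a predicted gene, was at 464 and 69.3 CPM, a log2 ratio of -2.74 (-3.28 to -2.25), and at -1.86 in other kept cells. Hgsnat, a lysosomal enzyme of heparan sulfate breakdown, was at -2.31 (-3.70 to -1.16). Itga1, the integrin alpha chain for collagen, was at -1.91 (-3.05 to -0.92). Slc29a3, a lysosomal nucleoside transporter, was at -1.79, and Srebf2, a transcription factor of sterol synthesis, was at -1.76. These last 4 genes rested on 7 to 10 UMIs in the B6.SLE123 cells.

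Antigen-presentation genes differed by less than 2-fold in B6.SLE123 4-marker cells, with 1 exception. The 10 listed genes summed to 9858, 9710 and 6857 CPM, and of the 8 measured all had log2 ratios under 0 and 1 was called. The called gene was Ciita, the master activator of MHC class II genes, at 25.0 CPM against 54.4 CPM, a log2 ratio of -1.12 (-2.15 to -0.19). H2-Aa, a class II alpha chain, was at 683 and 1172 CPM, a log2 ratio of -0.78 (-0.96 to -0.60), and Cd74, the invariant chain, at 3054 and 4792 CPM, a log2 ratio of -0.65 (-0.74 to -0.56). At 1500 UMIs a cell Cd74 had a UMI in 56.5% of B6.SLE123 (46.6 to 66.0) and 56.6% of control cells (48.3 to 64.6), and H2-Aa in 16.7% (10.2 to 25.1) and 25.0% (18.3 to 32.7), so both pairs of intervals overlapped. Few cells carried H2-Aa, 31 of 113 and 47 of 156. Its hashtags overlapped widely, from 205 to 1034 CPM in B6.SLE123 and from 80.2 to 4960 CPM in control. Cd209a, a lectin of monocyte-derived dendritic cells, was at 46.2 and 193 CPM, a log2 ratio of -2.07 (-2.75 to -1.43). It was carried by 7 of 113 and 22 of 156 cells, and 16 of its 24 UMIs came from B6.SLE123 C0306, without which the ratio was -3.51. The 10 genes of the dendritic cell-like monocyte list, Slamf7 and Cd209a among them, summed to 499, 651 and 173 CPM. Of 11 dendritic cell genes listed as markers of other cells, summed levels were 657, 651 and 514 CPM with 3, 4 and 4 of them at 0, and their part in these differences was not tested.

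**Figure D3:**
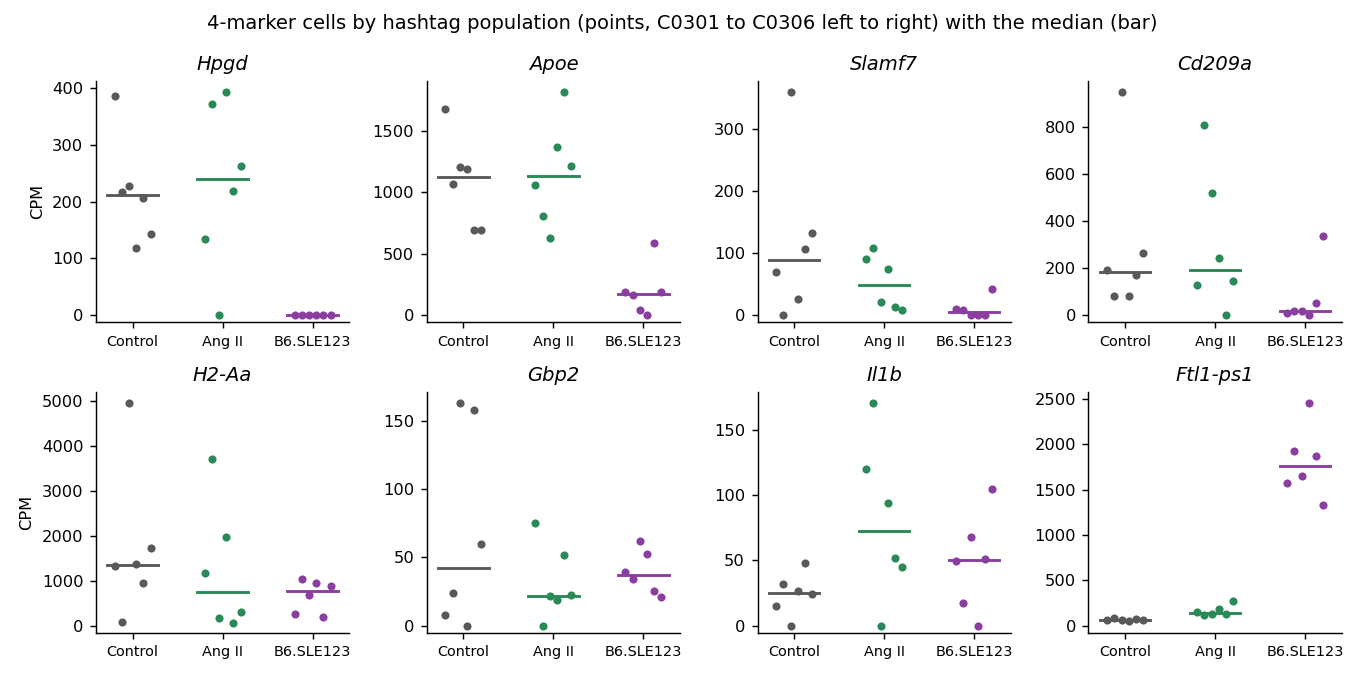
CPM of 8 genes summed over the 4-marker cells of each hashtag population (points, C0301 to C0306 from left to right), with the median of the 6 as a bar. Hpgd was at 0 in all 6 B6.SLE123 hashtags, Apoe did not overlap between B6.SLE123 and control, Ftl1-ps1 lay between 1336 and 2459 CPM in B6.SLE123 and at most 270.4 CPM elsewhere, and the other genes overlapped.

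The genes higher in B6.SLE123 4-marker cells included cell cycle genes and single genes. Granule and haemoglobin genes, which had the highest ratios, rested on few cells and are given further below. The 15 listed cell cycle genes summed to 2261, 2312 and 3989 CPM. Mki67, a marker of cycling cells, was at 200 CPM against 13.6 CPM, a log2 ratio of 3.88 (2.94 to 4.98). Top2a, which untangles replicated DNA, had 78 UMIs against 2, a log2 ratio of 5.79 (3.88 to 8.86). Cells with at least 2 UMIs over Mki67 and Top2a numbered 1 of 156 (0.641%, 0.0162 to 3.52) in control, 2 of 77 (2.60%, 0.316 to 9.07) with Ang II and 16 of 113 (14.2%, 8.32 to 22.0) in B6.SLE123. Of those 16 cells, 10 carried hashtag C0303. A UMI of Mki67 was present in 1.32%, 1.30% and 9.26% of cells thinned to 1500 UMIs. Without the cells with at least 2 UMIs over Mki67 and Top2a, Mki67 was at 1.5, a fall fixed by how those cells were chosen. Then 44 genes were called higher in place of 70. In all other kept cells Mki67 was also higher, at 1.97 (1.88 to 2.07).

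Ftl1-ps1 (chr13:74399694-74407346, plus strand), a processed copy of the ferritin light chain gene Ftl1, was at 1744 CPM in B6.SLE123, 180 in Ang II and 72.1 in control 4-marker cells. The log2 ratio of B6.SLE123 to control was 4.60 (4.19 to 5.02), with UMIs in 110 of 113 and 39 of 156 cells. It was as high in all other kept cells (4.65), and since reads of this copy and of Ftl1 are nearly alike its counts are uncertain. Hmox1, the stress-induced haem oxygenase, was at 119 and 51.7 CPM, a log2 ratio of 1.21 (0.60 to 1.83). Gclm, the regulatory subunit of the enzyme that starts glutathione synthesis, was at 1.28 (0.46 to 2.13), and these were the 2 of 14 antioxidant enzymes called. The 10 macrophage markers, of which Hmox1 is 1, summed to 110, 116 and 273 CPM, with 2, 6 and 4 of them at 0, and their part in the Hmox1 ratio was not tested. Ctsl, the lysosomal protease cathepsin L, was at 1.20 (0.50 to 1.92), the 1 of 12 lysosome genes called. Pglyrp1, a peptidoglycan-binding protein that nonclassical monocytes also express, was at 2.22 (1.83 to 2.62) and at 1.44 without 3 cells rich in granule or haemoglobin UMIs.

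Those cells decided several of the highest ratios. The 12 neutrophil-like genes summed to 10236 CPM in B6.SLE123 4-marker cells, but 60.7% of the UMIs of S100a8, a subunit of calprotectin, lay in 1 cell. Its log2 ratio was 6.66 with all cells and 1.79 without the cells rich in granule or haemoglobin UMIs. Camp had 677 UMIs in 11 cells, 59.1% of them in 1 cell, and 0 in control. The haemoglobin genes Hbb-bs, Hbb-bt and Hba-a1 were at 4336, 894 and 391 UMIs against 0, 1 and 1. Nearly all of their member-wide UMIs (96.5%, 91.1% and 95.8%) lay in 1 cell. Without those cells 70 genes were still called higher and 42 lower.

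The 6 phagocyte NADPH oxidase genes, which make superoxide, had 0 called for either library, with medians of -0.12 for Ang II and -0.17 for B6.SLE123. Cybb, the catalytic subunit, was at 1112 CPM in B6.SLE123 and 1342 in control, a log2 ratio of -0.27 (-0.42 to -0.12). The 8 Fc receptors and adaptors had 0 called in either library, with medians of 0.12 and -0.02, as had the 8 chemokine receptor and adhesion genes, with medians of 0.05 and -0.26. Over all genes 40 of 3566 (1.12%) were called for Ang II and 117 of 3447 (3.39%) for B6.SLE123. Lists this short can readily hold 0 calls at those shares.

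By chromosome, the genes called in B6.SLE123 4-marker cells were 11 of 205 tested on chromosome 1, 6 of 200 on chromosome 4 and 13 of 267 on chromosome 7. Those are 5.37%, 3.00% and 4.87%, beside 117 of 3447 (3.39%) over all genes and 6 of 186 (3.23%) on chromosome 9, counting both directions. The lupus intervals of the strain lie on chromosomes 1, 4 and 7. Slamf7 and Apoe are on chromosomes 1 and 7, while Hpgd and Cyp4f18 are on chromosome 8. In Ang II 4-marker cells, from C57Bl/6 mice, 4 of 219 genes (1.83%) were called on chromosome 1. That stood beside 40 of 3566 (1.12%) over all genes, with 3 of 204 on chromosome 4 and 0 of 264 on chromosome 7. The part of the intervals in the B6.SLE123 calls was not tested.

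In Ang II 4-marker cells fewer genes stood apart. The highest ratio was Lyz1, a second lysozyme and near copy of Lyz2, with 111 UMIs in 8 of 77 cells against 4 UMIs in 1 of 156 control cells, a log2 ratio of 5.18 (3.78 to 7.08). Hashtags C0301 and C0305 held 57 and 48 of those UMIs and 1 cell held 51.4% of them, so the value is uncertain. Il1b, the inflammatory cytokine interleukin-1 beta, was at 83.6 CPM in the Ang II library and 32.7 in control. Its log2 ratio of Ang II to control was 1.36 (0.62 to 2.13), from 1.15 to 1.89 leaving out 1 hashtag at a time. UMIs of Il1b were present in 20 of 77 Ang II cells and 22 of 156 control cells. By hashtag it was at 120, 170, 0, 93.6, 51.5 and 45.1 CPM with Ang II and between 0 and 48.1 CPM in control, so the ranges overlapped. After thinning to 1500 UMIs, 10.4% of Ang II cells (4.59 to 19.4) and 7.24% of control cells (3.67 to 12.6) had a UMI, and these intervals overlapped.

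Per1, a circadian clock gene that glucocorticoids induce, was at 62.3 CPM in Ang II and 21.8 in control, a log2 ratio of 1.52 (0.62 to 2.47). Its hashtags lay between 37.5 and 84.3 CPM in the Ang II library and between 12.0 and 32.6 CPM in control, with no overlap, on 35 and 16 UMIs. Per1 was named for its high ratio in these same cells, so the lack of overlap is a description. Socs3, a feedback inhibitor of cytokine signalling, was at 64.1 and 23.1 CPM, a log2 ratio of 1.47 (0.60 to 2.39). It was 0.86 without Ang II C0301, which held 18 of its 36 UMIs. F5 (coagulation factor V) was at 1.35 (0.51 to 2.23), Cd7 at 2.34 on 5 Ang II cells, mt-Nd6 at 1.5, and the predicted genes Gm42031 and Gm11808 at 2.00 and 1.55. In all other kept cells Per1 was at 0.41 and Gm42031 at 1.95.

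The genes lower in Ang II 4-marker cells included interferon-inducible ones. Gbp2, a guanylate-binding protein of host defence, was at 35.6 and 81.7 CPM, a log2 ratio of -1.20 (-2.01 to -0.45). Control C0305 held 46 of its 60 control UMIs, and without that hashtag the ratio was 0.17. AW112010, an interferon-inducible transcript, was at -1.27 (-1.93 to -0.64) and at 0.01 without control C0305. Ube2l6, which attaches ISG15 to proteins, was at -1.26 (-2.17 to -0.42), Nmi at -1.17 (-2.01 to -0.40) and Ifi213 at -1.16 (-2.19 to -0.22). For Ube2l6, Nmi and Ifi213 no value without control C0305 is given. Fkbp15 (-1.22), Cpne3 (-1.05), Vcl (-1.05, the adhesion protein vinculin), Mrps18c (-1.03, a mitochondrial ribosomal protein) and Lpl (-1.05, lipoprotein lipase) completed the 10 lowest. Lpl had 46 UMIs in control, 17 in Ang II and 0 in B6.SLE123 4-marker cells.

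**Figure D4:**
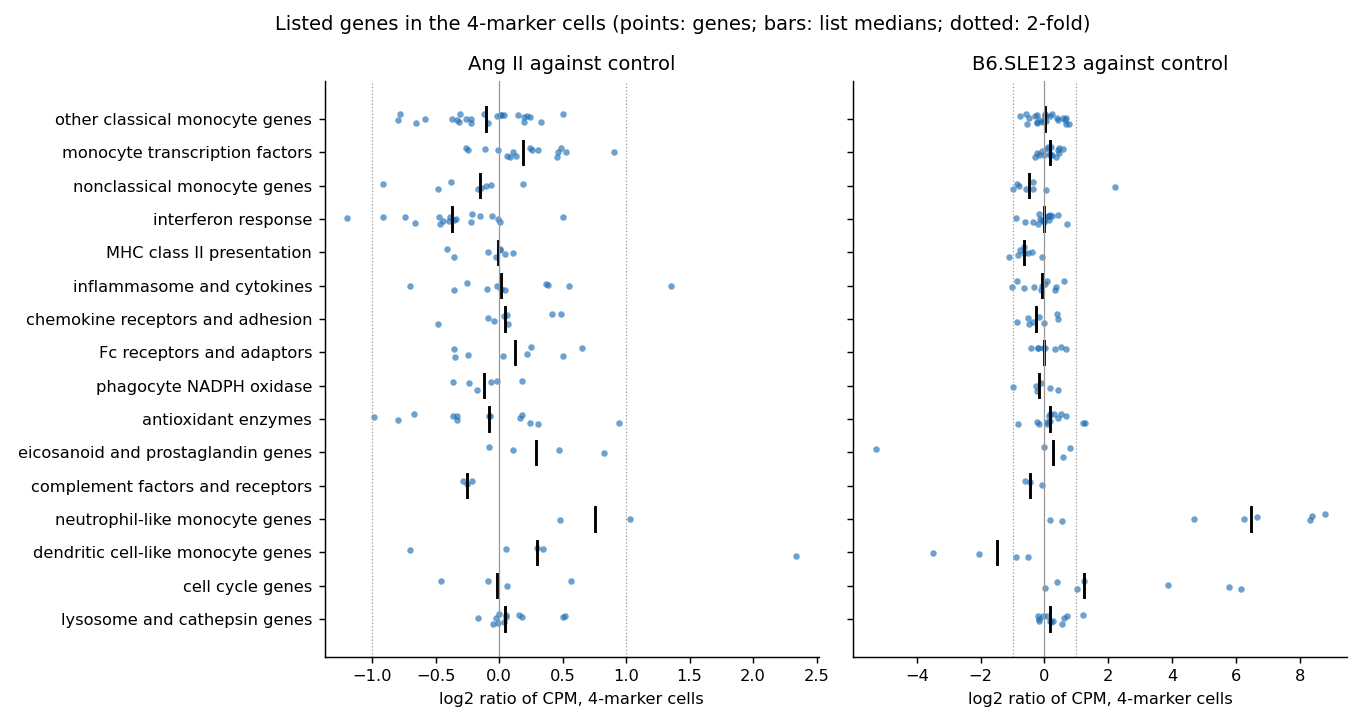
Log2 ratios of CPM to control in the 4-marker cells for each listed gene with at least 50 UMIs over both libraries (points), with the list median (black bar) and dotted lines at 2-fold. The panels have different x scales; most genes lie between the dotted lines, and the points beyond 4 in the B6.SLE123 panel are neutrophil-like genes decided by few cells and 2 cell cycle genes.

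The measured interferon response genes lay within 2-fold of control in B6.SLE123 4-marker cells. Calls numbered 0 of 17, with a median of -0.01, beside 117 of 3447 (3.39%) called over all genes. Ifi27l2a, the most abundant of them, was at 3618 CPM against 2221 in control, a log2 ratio of 0.70 (0.61 to 0.80). Its hashtags lay between 2302 and 5016 CPM in B6.SLE123 and between 1399 and 2698 in control, with overlap. Irf7, the regulator of type I interferon genes, was at 0.44 (0.05 to 0.83). In Ang II 4-marker cells 16 of 18 lay under 0, with a median of -0.37 beside 0.00 over all genes. There Ifi27l2a was at -0.74 (-0.87 to -0.62). Control C0305 held 60 of the 156 control cells, and without it the ratio of Gbp2 turned positive. No value without that hashtag is given for the list or for Ifi27l2a, so they may rest on it.

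In the Ly6c2-only cells 76 of 2854 genes (2.66%) were higher and 28 (0.981%) lower for Ang II, and 155 of 2399 (6.46%) were higher and 24 (1%) lower for B6.SLE123. The control cells held 385021 gene UMIs against 1506289 and 1040685. Genes could thus reach the minimum through the other library, and the counts each way are descriptions. The all-gene medians were 0.07 and 0.18. Intervals excluded 0 for 55 of the 76 and 150 of the 155 higher genes, and for all the lower ones. The 25 listed interferon response genes summed to 556, 358.5 and 1235 CPM in the Ly6c2-only cells, with 5, 1 and 1 of them at 0. Only 10 of them reached the minimum for B6.SLE123, several through that library, which held more UMIs, so no count over them is given. Bst2, the antiviral protein tetherin and also a dendritic cell marker, was at 77.8 CPM against 10.4, a log2 ratio of 2.91 (1.49 to 4.82). Oas1a, a sensor of double-stranded RNA, was at 76.9 and 18.2 CPM, a log2 ratio of 2.08 (0.97 to 3.44). Irf7 was at 1.54 (0.40 to 2.92), and Ifi27l2a, at 338 and 143 CPM, at 1.24 (0.83 to 1.68). UMIs in the control cells were few, 4 for Bst2 and 7 each for Oas1a, Irf7, Oasl2 and Zbp1, so the intervals are wide. After thinning to 1500 UMIs, Ifi27l2a had a UMI in 26.4% of B6.SLE123 (19.5 to 34.2) and 10.3% of control Ly6c2-only cells (3.89 to 21.2), with Ang II at 6.58%, beside 42.5%, 33.6% and 52.0% of B cells in library order. In the Ang II library Ifi27l2a was at -1.68 (-2.22 to -1.14) and Ly6e at -1.48 (-2.16 to -0.77). Markers of other cells moved with the B6.SLE123 values. From control to B6.SLE123 Ly6c2-only cells, the 11 B and plasma cell markers summed to 171 and 544 CPM, the 11 dendritic cell markers to 10.4 and 94.2, the 10 macrophage markers to 10.4 and 107, and the 8 erythroid and platelet markers to 0 and 249.8 (Ang II 222, 9.96, 16.6 and 1.99 CPM). In the same order 6, 10, 8 and 8 of these genes were at 0 in control and 2, 4, 3 and 3 in B6.SLE123, and their part in these ratios was not tested. The difference between the 2 sets of cells was not tested.

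**Figure D5:**
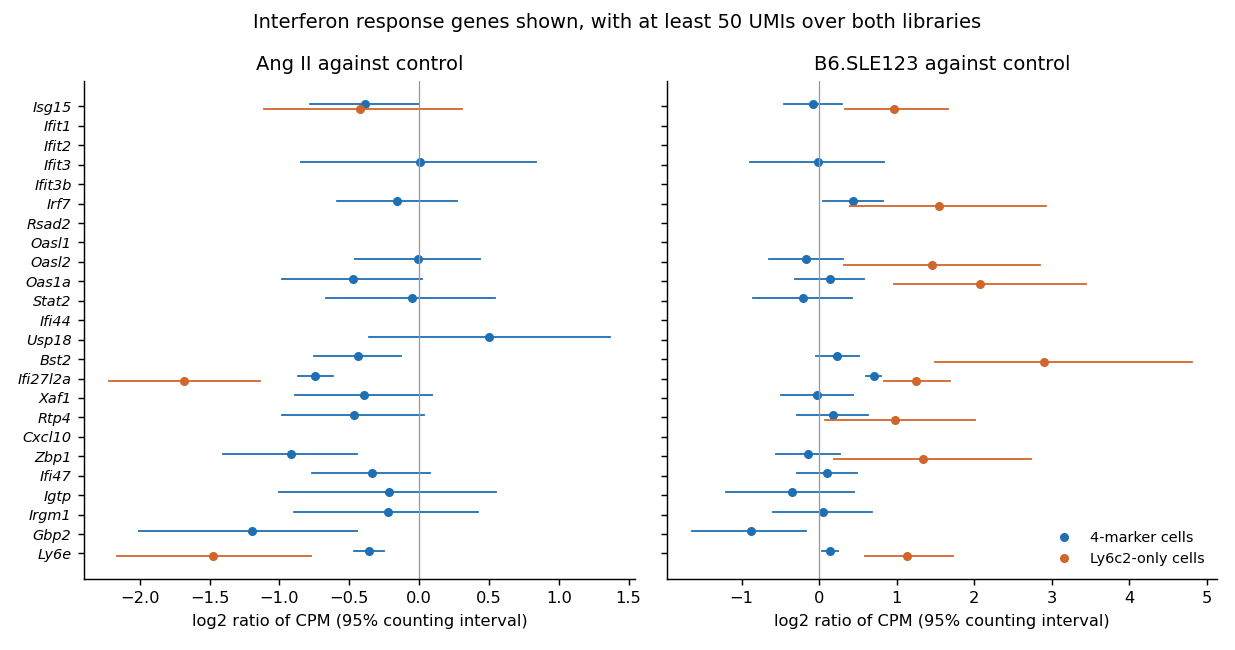
Log2 ratios of CPM to control with 95% counting intervals (lines) for the interferon response genes shown with at least 50 UMIs over both libraries, in 4-marker cells (blue) and Ly6c2-only cells (orange). In the B6.SLE123 panel the orange points shown lie above 0, on genes that could reach the minimum through that library, while the blue points scatter around 0, and in the Ang II panel most blue points lie under 0; the x scales differ.

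Granule genes of the Ly6c2-only cells differed little between libraries. Camp was at 57140, 46812 and 56191 CPM, Ngp at 49751, 59834 and 55273 CPM and Ltf at 11046, 14721 and 11336 CPM. The log2 ratios to control were -0.29, 0.27 and 0.41 for Ang II and -0.02, 0.15 and 0.04 for B6.SLE123. None of the 9 neutrophil-like genes measured was called in either library. Over all genes 104 of 2854 (3.64%) were called for Ang II and 179 of 2399 (7.46%) for B6.SLE123. A list this short can readily hold 0 calls at those shares. Cells with at least 2 UMIs over Mki67 and Top2a were 7 of 62 (11.3%, 4.66 to 21.9), 29 of 152 (19.1%, 13.2 to 26.2) and 51 of 152 (33.6%, 26.1 to 41.7). With cells thinned to 1500 UMIs, 12.1% (4.99 to 23.3), 11.2% (6.65 to 17.3) and 20.9% (14.7 to 28.4) of cells had a UMI of Mki67. By this measure the Ang II share did not lie above control. The intervals of Ang II and of B6.SLE123 both overlapped that of control. The Ang II cells were deeper, and the part of depth was not tested. The 15 cell cycle genes summed to 4678, 4795 and 7300 CPM. The 10 MHC class II genes summed to 377, 116 and 906 CPM, with Cd74 at 481 CPM against 221 CPM in control, where 71.8% of its UMIs lay in 1 cell. Markers of T and NK cells summed to 1036, 183 and 212 CPM in the Ly6c2-only cells, and at least 5 UMIs over Nkg7, Gzma and Ccl5 were present in 5, 3 and 3 of them. Their part in these ratios was not tested.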

How the data were processed

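RNA of T cell-depleted splenocytes was measured in 3 hashed libraries. The authors deposited UMI counts per gene and barcode, made with Cell Ranger 6.0.0 on mm10, as the file headers and the submitters' processing notes give them; the annotation release is not given in the sources used here. Cell members and gene lists were chosen with earlier results of these data known. Counts were summed over the chosen cells of a library and divided by their total. Python 3.11.15 with NumPy 2.4.6, SciPy 1.17.1, pandas 2.3.3 and matplotlib 3.10.9 gave exact Poisson, conditional and Clopper-Pearson 95% intervals; R 4.3.3 with edgeR 4.0.16 (TMM) and DESeq2 1.42.0 (median of ratios) gave alternative scaling only. With 1 library per group no test was made, and a ratio against 0 was set at a floor of 3 counts per library. Named genes were the 10 highest and 10 lowest ratios among genes with at least 50 UMIs, the 20 genes most enriched over other kept cells, and the listed genes; immunoglobulin, T cell receptor, Xist, Tsix and Y-linked genes were left out. Naming followed the same ranks in the 4-marker and Ly6c2-only cells. Gene positions were matched by Ensembl ID to GENCODE on GRCm38 for 32235 of 32285 genes. Doublets were limited by the hashtag and gene-number terms, and no doublet caller was run. Alternatives were other marker limits, leaving out Ly6c2, thinning, other scaling and UMI floors, and leaving out each hashtag. The scripts were tested on simulated data. Some listed genes are not reported by name here. The control Ly6c2-only cells held 385021 gene UMIs in all, against 1506289 and 1040685.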

Additional observations from a re-analysis of the deposited data

Results flagged for a closer look

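The 2 sets of selected cells moved in opposite directions against control, and this difference was not tested. The log2 ratio of the share of 4-marker cells was -0.83 for Ang II and -0.60 for B6.SLE123. The log2 ratio of the share of Ly6c2-only cells was 1.48 for Ang II and 1.16 for B6.SLE123. Without Ang II C0302 the first was 0.87, and without B6.SLE123 C0303 the second was 0.32. With cells thinned to 1000 UMIs they were -0.84 (-1.98 to 0.21) and 0.96 (0.22 to 1.73), and 0.29 (-0.36 to 0.95) and 1.08 (0.53 to 1.66) with Cst3 read before thinning, so at equal depth the intervals for Ang II included 0. Each ratio compares 1 library with 1 library, and the hashtag populations within a library varied more than the libraries differed.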

How the results depend on the processing

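Leaving Ly6c2 out of the marker sum gave the 4-marker cells. The log2 ratio of member shares, 0.17 for Ang II and 0.21 for B6.SLE123, was then -0.83 and -0.60. For Ang II it was -1.22 with the rule's limits applied to UMIs, and after thinning to 1000 UMIs -1.19 at a sum of 3, -1.46 at a sum of 5 and -1.12 for the other 4 markers at 3. For B6.SLE123 it was -0.23 and -0.62 under the last 2, and -0.25 as a share of kept cells with Cst3 and no Cd79a. Leaving out 1 hashtag at a time it lay between -0.19 (without Ang II C0302) and 0.56 (without control C0305) for Ang II, and between -0.25 (without B6.SLE123 C0303) and 0.60 (without control C0305) for B6.SLE123. The 206 genes higher for Ang II became 28 without Ly6c2, 11 with limits on UMIs, 443 with TMM, 465 with median of ratios scaling, 676, 350 and 128 with at least 1, 20 and 100 UMIs, 76 in Ly6c2-only cells, 28 in 4-marker cells with few granule and haemoglobin UMIs and 29 in those with few cell cycle UMIs. The 677 lower became 12, 51, 203, 190, 1849, 1137, 398, 28, 12 and 14 in the same order. Leaving out hashtags gave 119 (without Ang II C0302) to 307 higher and 227 (without Ang II C0302) to 870 lower. The 229 genes higher for B6.SLE123 became 70 without Ly6c2, 18 with limits on UMIs, 848, 453 and 116 with at least 1, 20 and 100 UMIs, 70 with few granule and haemoglobin UMIs and 44 with few cell cycle UMIs. The 297 lower became 47 without Ly6c2, 31 with limits on UMIs, 141 with TMM, 132 with median of ratios scaling, 1228, 619 and 131 by UMI floor, 24 in Ly6c2-only cells, 42 with few granule and haemoglobin UMIs and 47 with few cell cycle UMIs. Leaving out hashtags gave 88 (without B6.SLE123 C0303) to 272 higher and 115 (without B6.SLE123 C0303) to 420 lower. With limits on UMIs the Ang II ratios of Gbp2 and Il18 in all members turned to 0.70 and 0.96. Apart from the smaller number of cells or genes some alternatives test, the cause was not tested. Settings that subset the 4-marker or Ly6c2-only cells, the thinned limits at 5 and on the other 4 markers, and the values without single cells were chosen after seeing the data. The log2 ratio of Ly6c2-only shares for Ang II, 1.48, was -0.84 after thinning and 0.29 with Cst3 read before thinning, both also chosen after seeing the data. No paired analysis was possible because each group was 1 library, so that the groups shared fewer than 2 replicates. Ang II cells hold more UMIs and pass a fixed count more easily, which limits the shares.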
